A study of Mus musculus with 11 samples.

Results

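The PYHIN family, also called the Ifi200 or p200 family, is a group of interferon-inducible mouse genes that lie side by side on chromosome 1. The family was followed through Aim2 and its neighbours Ifi203, Ifi204, Ifi205, Ifi207, Ifi209, Ifi211, Mnda and Mndal in BV2 cells, an immortalised line of mouse microglia labelled as C57BL/6. These 9 names came to 8 genes of the 36529 in the count files. Of the 9 names, 6 equalled a row of the files, Ifi207 was found as AI607873 and Ifi209 as Pyhin1 through RefSeq synonyms, and Mnda and Ifi211 are 1 gene with 1 row, called Ifi211 here. The rule that chose them uses the gene family and not the counts.

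The cells received a recombinant amino-terminal piece of human apolipoprotein E, residues 1 to 151, at 25 µg/mL for 5 h. The piece was either the E4 form (nApoE4) or the E3 form (nApoE3), which differ at a single residue, arginine in E4 and cysteine in E3, and both carry a histidine tag. The nApoE4 experiment held 3 treated libraries (ApoE4) and 3 untreated libraries (ControlA), and the nApoE3 experiment held 2 treated libraries (ApoE3) and 3 untreated libraries (ControlB). The labels call the controls untreated and name a PBS vehicle, whereas the study's methods describe conditioned medium, and which of these they received is not settled by the sources used here. All groups are 1 cell line. The study's methods speak of independent measurements, but neither they nor the labels say that the replicates came from separate cultures, so that the p-values measure the spread between these libraries, which may be technical.

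PYHIN proteins join an amino-terminal pyrin domain, which binds other pyrin domains, to carboxy-terminal HIN domains, which bind double-stranded DNA. AIM2 senses DNA in the cytosol and recruits the adaptor ASC and caspase-1 into an inflammasome, the complex that matures IL-1β and IL-18 and cuts gasdermin D. Several of the Ifi200 proteins have instead been placed in the nucleus, where they act on transcription, or on the route from DNA sensing through STING to type I interferon, and the genes are known as targets of interferon in macrophages.

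In the nApoE4 experiment each library held 39732710 to 44162511 counts on genes, and in the nApoE3 experiment 55809688 to 69768666. A level of 3 counts, taken as the floor, equals 0.0430 to 0.0755 CPM, and this covers counting error only. The libraries held the macrophage and microglia markers Csf1r at 676.5 to 814.1 CPM and Cd68 at 706.7 to 1143 CPM. However, P2ry12, a marker of resting microglia, had 0 counts in all 11 libraries, and Aif1 had at most 10 counts in any of them. Reads tallied as ambiguous between genes, 3.24 to 3.56% of those tallied, were counted on none. Whether these 2 genes lost reads in this way was not tested. ControlA replicate 2 stood apart from its group. Its counts differed from those of replicates 1 and 3 by a chi-square of 25.8 and 47.9 per gene, against 3.15 to 12 for every other pair of replicates. Without it, the ApoE4 comparison still gave 7 members higher and 1 lower. For members, the value without it is printed below where it moved a fold change by more than 1.5 times.

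The 8 genes lie between positions 173350879 and 174031810 of chromosome 1 (GRCm38, GENCODE M21), a span of 681 kb. In order of position they are Aim2 (chr1:173350879-173466040), Ifi209 (chr1:173630917-173647928), Ifi207 (chr1:173723427-173741747), Ifi204 (chr1:173747293-173766943), Mndal (chr1:173849126-173942491), Ifi211 (chr1:173896345-173913046), Ifi203 (chr1:173920407-173942672) and Ifi205 (chr1:174011998-174031810). Aim2 and Ifi209 are on the plus strand and the other 6 are on the minus strand. The annotated exons of Mndal and Ifi203 overlap on the same strand in GENCODE but not in RefSeq, and which annotation was used for the counting is not known.

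The genes resemble each other in sequence, which bears on how many of their reads could be counted. Of all distinct 75-base windows (the read length) in the GENCODE transcripts of Ifi211, 63.6% occur in a transcript of another gene, with 40.6% shared with Ifi205 and 23.0% with Ifi204. The share was 23.0% for Ifi209, all with Ifi214, and 16.6% for Ifi205, 13.2% for Ifi204, 11.1% for Mndal, 5.71% for Ifi203 and 2.80% for Ifi207. Aim2 shared none of its windows. Reads placed at several sites, 11.7 to 13.2% of those tallied, were not counted on any gene, so the level of Ifi211 in particular rests on a small part of its transcript.

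The promoter windows, taken from RefSeq (GRCm38.p6) from 250 bases before to 50 after the start site, were on hand for 7 of the 8 genes, with more than 1 start site for Mndal and Ifi203. They were searched on both strands for GAAA followed after any 2 bases by GAAA, the core of the interferon-stimulated response element (ISRE), for TTC followed after any 3 bases by GAA, the interferon-gamma activated sequence (GAS), and for GGGA followed after any 2 bases by TTCC, a form of the NF-kB element. The ISRE core was in the windows of 5 of the 7 genes and in those of 3.99% of all 27025 genes in the table. GAS was in none of the 7, against 9.55% of all genes, and the NF-kB form was in that of Ifi209 alone, against 1.63% of all genes. A match of letters is a description and not a site of binding.

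The windows of 5 genes are shown. Those with an ISRE core are set beside those of Aim2 and Ifi209, which have no exact match to it, and some are nearly copies of each other. The Ifi209 window holds taaatcgaaa, which differs from the GAAATCGAAA of Mndal in the first letter only and is passed over by an exact search. Capitals mark the match to the ISRE core or, in Ifi209, to the NF-kB form. The windows are chr1:174031706-174032005 for Ifi205, chr1:173912997-173913296 for Ifi211 and chr1:173880138-173880437 for Mndal, all on the minus strand, and chr1:173420354-173420653 for Aim2 and chr1:173630609-173630908 for Ifi209 on the plus strand. The Aim2 window lies inside the gene as annotated (chr1:173350879-173466040). The beginning of that span was not among the windows searched, so the lack of an ISRE core holds for this window only.
Ifi205: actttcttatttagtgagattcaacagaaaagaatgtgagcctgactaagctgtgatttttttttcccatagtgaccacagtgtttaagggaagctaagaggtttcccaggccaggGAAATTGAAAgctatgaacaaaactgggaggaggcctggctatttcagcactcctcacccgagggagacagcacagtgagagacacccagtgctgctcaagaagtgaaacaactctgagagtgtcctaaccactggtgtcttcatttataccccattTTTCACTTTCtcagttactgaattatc
Ifi211: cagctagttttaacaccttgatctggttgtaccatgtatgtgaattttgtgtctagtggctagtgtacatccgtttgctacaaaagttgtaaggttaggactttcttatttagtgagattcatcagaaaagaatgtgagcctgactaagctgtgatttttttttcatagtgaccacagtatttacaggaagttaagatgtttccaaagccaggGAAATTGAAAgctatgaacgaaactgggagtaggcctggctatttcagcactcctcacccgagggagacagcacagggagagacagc
Mndal: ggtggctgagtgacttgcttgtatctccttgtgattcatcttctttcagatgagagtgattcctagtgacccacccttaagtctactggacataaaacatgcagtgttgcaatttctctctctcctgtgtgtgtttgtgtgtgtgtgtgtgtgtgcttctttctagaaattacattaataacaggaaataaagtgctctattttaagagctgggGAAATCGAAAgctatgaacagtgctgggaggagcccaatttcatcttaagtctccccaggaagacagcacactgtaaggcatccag
Aim2: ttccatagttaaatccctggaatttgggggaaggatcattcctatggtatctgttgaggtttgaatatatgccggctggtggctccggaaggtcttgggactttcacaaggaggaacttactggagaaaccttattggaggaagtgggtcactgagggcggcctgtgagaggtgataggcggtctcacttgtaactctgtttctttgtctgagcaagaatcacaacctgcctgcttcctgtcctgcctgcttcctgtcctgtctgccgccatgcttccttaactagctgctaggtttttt
Ifi209: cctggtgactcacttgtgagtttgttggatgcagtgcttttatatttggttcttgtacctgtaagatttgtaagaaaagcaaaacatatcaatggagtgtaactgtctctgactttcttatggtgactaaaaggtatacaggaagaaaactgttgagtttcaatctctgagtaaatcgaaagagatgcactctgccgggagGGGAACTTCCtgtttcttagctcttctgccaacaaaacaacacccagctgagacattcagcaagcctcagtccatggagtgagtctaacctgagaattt

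In Ifi207 (chr1:173741760-173742059, minus strand) the match reads GAAATCGAAA and begins at -41, counted back from -1 at the base before the start site, and in Ifi203 (chr1:173942443-173942742, minus strand) the same letters begin at -35 from one of its annotated starts. Mndal holds these letters at -36, and Ifi211 holds GAAATTGAAA at -37. Ifi205 holds GAAATTGAAA at -134 from the RefSeq start and TTTCACTTTC, a match on the other strand, at base 24 after it. The most alike windows of Mndal and Ifi203 were 97.6% identical over 289 aligned bases, and those of Ifi211 and Ifi205 were 94.0% identical over 201. Ifi207 was 88.4% identical to Ifi211 and 88.7% to Ifi205. Windows of Aim2 aligned with no other member over more than 53 bases.

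**Figure D1:**
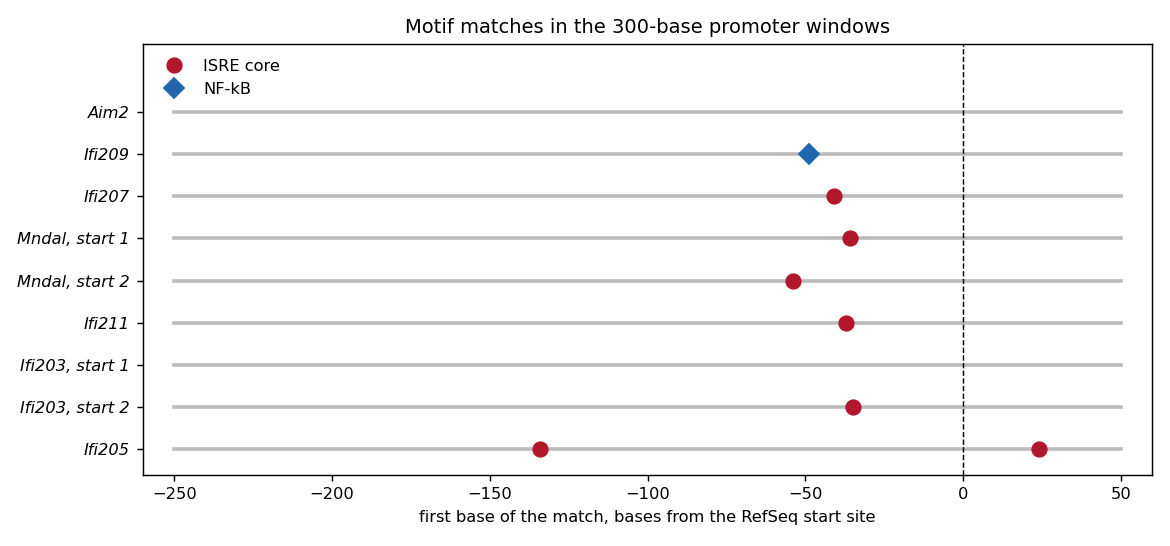
Positions of motif matches in the 300-base RefSeq promoter windows, with the distance of the first matching base from the start site (dashed line, in bases) on the x axis and 1 line for each annotated start. Circles mark the ISRE core and the diamond the NF-kB form. In Ifi207, Ifi211, Mndal and Ifi203 an ISRE core begins between -41 and -35 from a start site. The Aim2 window, which lies inside the annotated gene, has no match.

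Levels were compared between genes only per length, as CPM per kilobase of the gene's exons in GENCODE. In the untreated cells Aim2 was the highest of the family, at 32.9 ± 0.759 CPM per kilobase in ControlA (SD, n = 3) and 26.2 ± 0.436 in ControlB (n = 3). Ifi207 followed at 28.3 ± 2.91 and 14.9 ± 2.04 CPM per kilobase and Mndal at 8.48 ± 0.328 and 5.23 ± 0.151. Ifi204, Ifi203, Ifi211 and Ifi209 lay between 0.389 and 3.69 CPM per kilobase as group means, and Ifi205 was the lowest, at 0.0425 ± 0.0475 and 0.0322 ± 0.00888. By this length, no 2 neighbours in the order overlapped in range in either control group.

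After treatment the order changed. Ifi207 was first in both treated groups, at 59.4 ± 3.20 CPM per kilobase with nApoE4 (n = 3) and 75.2 ± 0.753 with nApoE3 (n = 2), and Aim2 moved to the second place with nApoE4 (26.6 ± 0.556 CPM per kilobase) and to the fifth with nApoE3 (24.6 ± 0.305). Ifi211 moved from the fifth place to the third with nApoE4 (23.8 ± 1.40) and from the sixth to the second with nApoE3 (38.2 ± 1.21). Ifi205 stayed last in both, at 3.21 ± 0.226 and 4.78 ± 0.0279 CPM per kilobase. The only neighbours whose ranges overlapped were Ifi204 and Mndal with nApoE3.

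The place of Ifi211 depended on the length used. When the level was expressed per 1000 of the 75-base windows that no other gene shares, of which Ifi211 has 623, Ifi211 became the highest of the family, at 68.1 ± 4.02 CPM with nApoE4 and 109 ± 3.47 with nApoE3, ahead of Ifi207 at 61.6 ± 3.31 and 77.9 ± 0.780. The ranges of these 2 genes overlapped with nApoE4 and did not with nApoE3. In ControlA the ranges of Aim2 and Ifi207 overlapped by this measure, and Ifi211 stood above Ifi204 (6.16 ± 0.956 against 4.35 ± 0.297 CPM). This length was added after the data were seen. With the length of the longest transcript in place of all exons, Mndal took the second place in both treated groups and Aim2 the third with nApoE4 and the sixth with nApoE3. Ifi211 was then at place 6 in ControlA and in ControlB, at place 5 in ApoE4 and at place 4 in ApoE3.

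The counts of the 8 genes together came to 260 to 286 CPM in ControlA and 551 to 562 CPM in ApoE4, and to 175 to 199 CPM in ControlB and 801 to 819 CPM in ApoE3. The share of Aim2 in the summed CPM per kilobase was 41.3 to 43.3% in ControlA and 16.0 to 16.9% in ApoE4, and 47.9 to 53.0% in ControlB and 10.5 to 10.6% in ApoE3. Over the same libraries the share of Ifi211 went from 2.38 to 3.40% to 13.8 to 15.1% in the nApoE4 experiment and from 1.40 to 1.91% to 16.2 to 16.6% in the nApoE3 experiment. The share of Aim2 was thus smaller and that of Ifi211 larger in every treated library than in any untreated one. In bulk RNA, a change in the number of cells that express a gene and a change in the RNA per cell cannot be told apart.

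**Figure D2:**
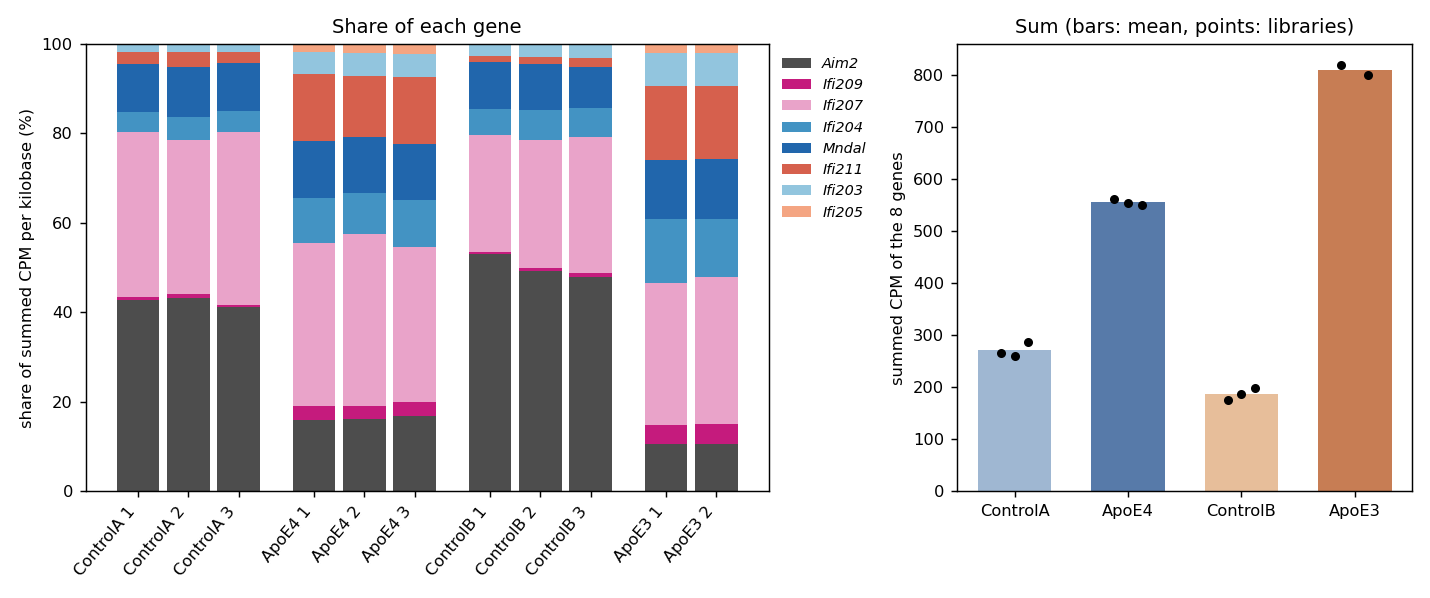
Left, the share of each gene in the summed CPM per kilobase of the 8 genes (percent, stacked bars) in each library. Right, the summed CPM of the 8 genes, with bars for group means and points for libraries. Aim2 makes up 41.3 to 53.0% of the untreated libraries and 10.5 to 16.9% of the treated ones, and the sum is higher in every treated library than in any untreated one.

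The first question was how each fragment changed the members against its own controls, tested by quasi-likelihood in edgeR and adjusted by Benjamini-Hochberg over all genes tested. With nApoE4, 7 of the 8 members were higher and 1, Aim2, was lower, where 28.6% of the 14240 genes tested were higher and 28.6% lower. With nApoE3 the count was the same, 7 higher and 1 lower of 8, where 33.1% of 14817 genes were higher and 34.6% lower. Of these members, Ifi205 had too few untreated counts to be tested between the controls, so it entered through the treated libraries. With at least 10 counts required in every library, 6 members were higher and 1 lower with each fragment. By that filter, 57.7% of genes with nApoE4 and 71.1% with nApoE3 were called in either direction. The median log2 fold change of the members was 2.35 with nApoE4 and 3.38 with nApoE3, against 0.00 for all genes tested in each fit. With a fold change above 2 as well, 7 members were higher in each comparison, against 10.2% of genes with nApoE4 and 9.6% with nApoE3, and no member was lower, against 7.46% and 6.57%.

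**Figure D3:**
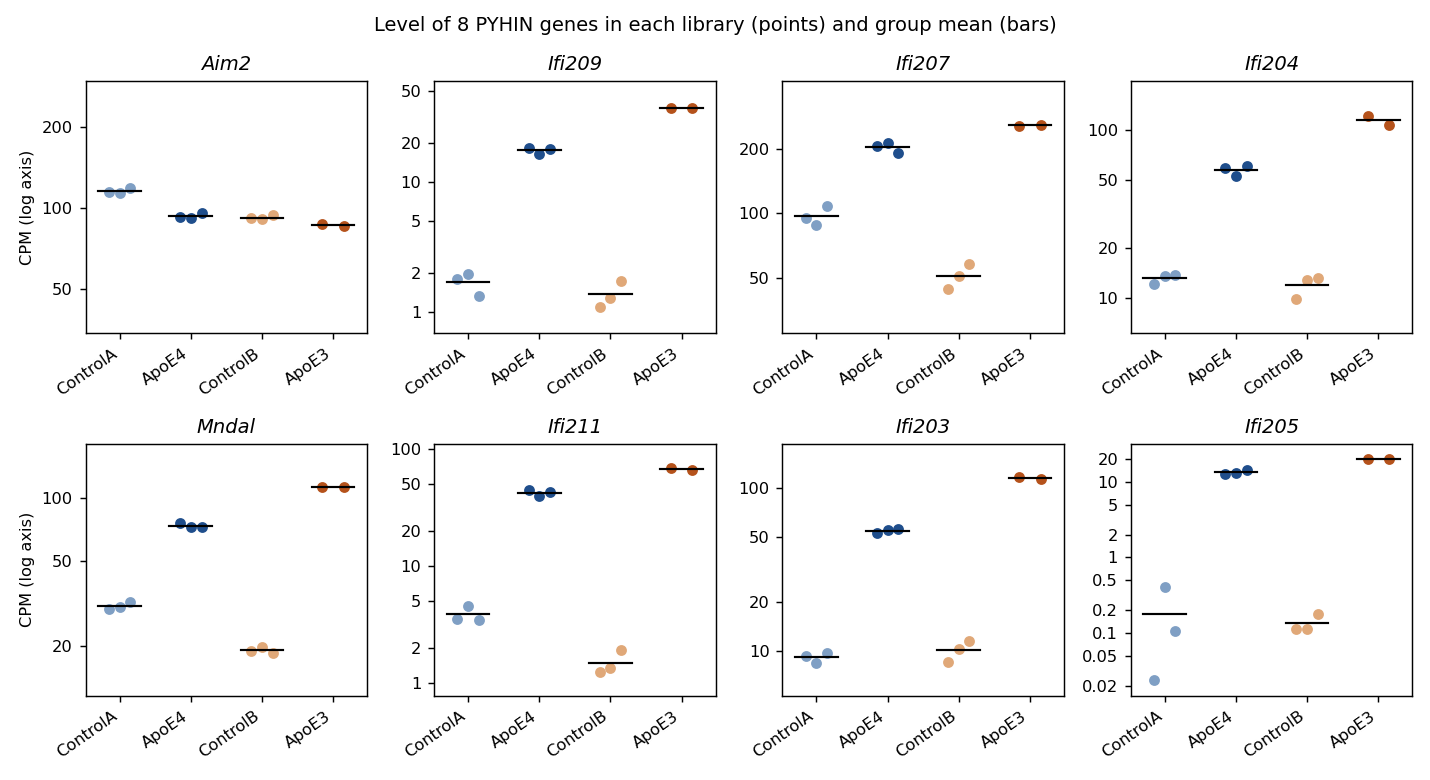
Level of each of the 8 genes in each library, in CPM on a log axis that differs between panels, with points for libraries and bars for group means. In 7 panels every treated library lies above every untreated library of either experiment, and in the panel of Aim2 the ApoE4 libraries lie below ControlA and the ApoE3 libraries below ControlB.

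Aim2, the DNA sensor of the inflammasome, was the exception. It had 4859, 5072 and 5513 counts in ControlA and 3960, 3804 and 3780 in ApoE4, or 115 ± 2.66 and 93.0 ± 1.95 CPM (SD, n = 3 each). Counts of 6452, 5605 and 5270 in ControlB and 5051 and 4816 in ApoE3 came to 91.8 ± 1.53 (n = 3) and 86.1 ± 1.07 CPM (n = 2). In CPM every treated library was below every control of its own experiment, while the ApoE4 and ControlB libraries overlapped. The log2 fold change of Aim2 was -0.30 ± 0.054 (SE) with nApoE4 (edgeR adjusted p = 0.000983) and -0.10 ± 0.028 with nApoE3 (adjusted p = 0.00752). The second of these calls was lost in a fit of all 11 libraries (adjusted p = 0.0917) and without ApoE3 replicate 2 (adjusted p = 0.0545).

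Ifi204 encodes p204, a mouse relative of human IFI16 that has been described as a DNA sensor upstream of STING. It had 516, 611 and 640 counts in ControlA and 2529, 2196 and 2402 in ApoE4, and 703, 791 and 746 in ControlB against 7044 and 5997 in ApoE3. Treated and untreated libraries did not overlap in either experiment, and both ApoE3 libraries were above all ApoE4 libraries in CPM. The level went from 13.2 ± 0.898 to 57.5 ± 4.06 CPM with nApoE4, a log2 fold change of 2.13 ± 0.078 (edgeR adjusted p = 1.81e-08). With nApoE3 it went from 12 ± 1.78 to 114 ± 10.5 CPM, a log2 fold change of 3.25 ± 0.083 (adjusted p = 5.28e-12).

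Ifi203, reported with DDX41 and STING in the sensing of retroviral DNA, had 398, 382 and 458 counts in ControlA and 2282, 2299 and 2227 in ApoE4. Its counts were 610, 636 and 653 in ControlB and 6795 and 6443 in ApoE3. The untreated levels of the experiments overlapped, at 9.23 ± 0.655 CPM in ControlA and 10.2 ± 1.48 in ControlB, and the treated levels stood apart, at 54.9 ± 1.5 and 115 ± 1.89 CPM. The log2 fold change was 2.58 ± 0.071 with nApoE4 (edgeR adjusted p = 3.08e-09) and 3.51 ± 0.068 with nApoE3 (adjusted p = 4.15e-13).

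Ifi207, reported to stabilise STING, was the most abundant of the rising members in untreated cells, with 4068, 3935 and 5019 counts in ControlA and 3110, 3156 and 3271 in ControlB. Treated libraries held 8850, 8813 and 7578 counts with nApoE4 and 14860 and 14625 with nApoE3. The treated libraries were higher throughout, and every ControlB library was below every ControlA library in CPM (51 ± 6.99 against 97.0 ± 9.97). Its log2 fold change was the smallest of the 7 that rose with either fragment, 1.07 ± 0.083 with nApoE4 (edgeR adjusted p = 3.34e-06) and 2.33 ± 0.072 with nApoE3 (adjusted p = 2.97e-11).

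Ifi205, whose product has been reported to control the expression of the gene for ASC, had 1, 18 and 5 counts in ControlA and 544, 544 and 575 in ApoE4. In the other experiment it had 8, 7 and 10 counts in ControlB and 1157 and 1132 in ApoE3. It was at no more than 18 counts in any untreated library and at no fewer than 544 in any treated one, and ControlA replicate 2 held most of the counts of its group. The log2 fold change was 6.21 ± 0.352 with nApoE4, a fold of 74.1 (edgeR adjusted p = 3.49e-07), and 7.21 ± 0.120 with nApoE3, a fold of 148 (adjusted p = 1.24e-13). Without ControlA replicate 2 the value with nApoE4 was 7.58 on the log2 scale (adjusted p = 1.32e-10), and it was 5.72 to 6.25 without any other single library. Ifi205 was 16th from the top among all genes tested with nApoE3 and 50th with nApoE4.

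Ifi211, the row listed as Mnda after the myeloid cell nuclear differentiation antigen of human cells, had 150, 203 and 162 counts in ControlA and 1908, 1647 and 1711 in ApoE4. ControlB held 87, 82 and 107 counts and ApoE3 held 4054 and 3761. Its ControlB libraries were all below its ControlA libraries in CPM, at 1.49 ± 0.361 against 3.84 ± 0.596, and its treated libraries were at 42.4 ± 2.51 CPM with nApoE4 and 68.1 ± 2.16 with nApoE3. The log2 fold change was 3.47 ± 0.105 with nApoE4 (edgeR adjusted p = 5.35e-09) and 5.53 ± 0.082 with nApoE3 (adjusted p = 5.5e-14). With its large share of sequence in common with Ifi205 and Ifi204, which also rose, these values are uncertain where reads of a near-identical stretch were assigned to the wrong gene.

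Mndal, reported to restrain cell growth, had 1271, 1359 and 1498 counts in ControlA and 3256, 3004 and 2877 in ApoE4. It had 1331, 1212 and 1043 counts in ControlB and 6514 and 6332 in ApoE3. Treated libraries lay above untreated ones in both experiments, and ControlB lay below ControlA in CPM (19.0 ± 0.547 against 30.8 ± 1.19). Its log2 fold change was 1.26 ± 0.058 with nApoE4 (edgeR adjusted p = 8e-08) and 2.55 ± 0.033 with nApoE3 (adjusted p = 1.57e-14). Mndal rose less than Ifi203 with each fragment, and the 95% intervals of their log2 fold changes did not overlap (1.15 to 1.38 against 2.44 to 2.72 with nApoE4). The most alike pair of their promoter windows was nearly the same, and the part of the promoter in these values was not tested.

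Ifi209, the member nearest to Aim2 on the chromosome and on the same strand, had 76, 88 and 62 counts in ControlA and 785, 683 and 707 in ApoE4. It had 78, 80 and 98 counts in ControlB and 2148 and 2089 in ApoE3. The untreated groups overlapped in CPM and the treated ones did not, at 17.5 ± 0.970 CPM with nApoE4 and 37.0 ± 0.0588 with nApoE3. The log2 fold change was 3.38 ± 0.132 with nApoE4 (edgeR adjusted p = 2.79e-08) and 4.76 ± 0.089 with nApoE3 (adjusted p = 3.18e-13). Thus Aim2 fell while its neighbour rose 10.4-fold with nApoE4 and 27.1-fold with nApoE3.

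The next question was whether the members responded differently to the 2 fragments. The difference of the log2 fold changes, nApoE4 minus nApoE3, was tested in a fit of all 11 libraries. It was below 0 and past the threshold for 7 of the 8 members, where 13.9% of the 15287 genes tested were lower and 14.4% higher, and no member was higher. The median difference of the members was -1.20 on the log2 scale, against 0.00 for all genes tested. Fragment and experiment cannot be told apart in this design, since each fragment was given in only 1 of the 2 experiments.

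Ifi211 had the largest difference, -2.07 ± 0.180 on the log2 scale (edgeR adjusted p = 3.08e-06), followed by Ifi209 at -1.39 ± 0.204 (adjusted p = 0.000254). Mndal was at -1.30 ± 0.067, Ifi207 at -1.27 ± 0.135, Ifi204 at -1.12 ± 0.145 and Ifi203 at -0.94 ± 0.124, each with an adjusted p of 0.000109 or less. In all 6 of these genes the rise was larger in the nApoE3 experiment. For Aim2 the difference was small, -0.21 ± 0.059 (adjusted p = 0.0163), with the larger fall in the nApoE4 experiment, and the call was lost with genes kept at 1 count or more (adjusted p = 0.141), with the replicate number as a block (0.111) and without ApoE3 replicate 1 (0.0839). Ifi205 had a difference of -1.0 with a 95% interval of -2.20 to 0.20 (adjusted p = 0.259). Its sign turned to 0.38 (adjusted p = 0.667) without ControlA replicate 2, and without ControlA replicate 1 it was -1.49 and passed the threshold (adjusted p = 0.044).

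**Figure D4:**
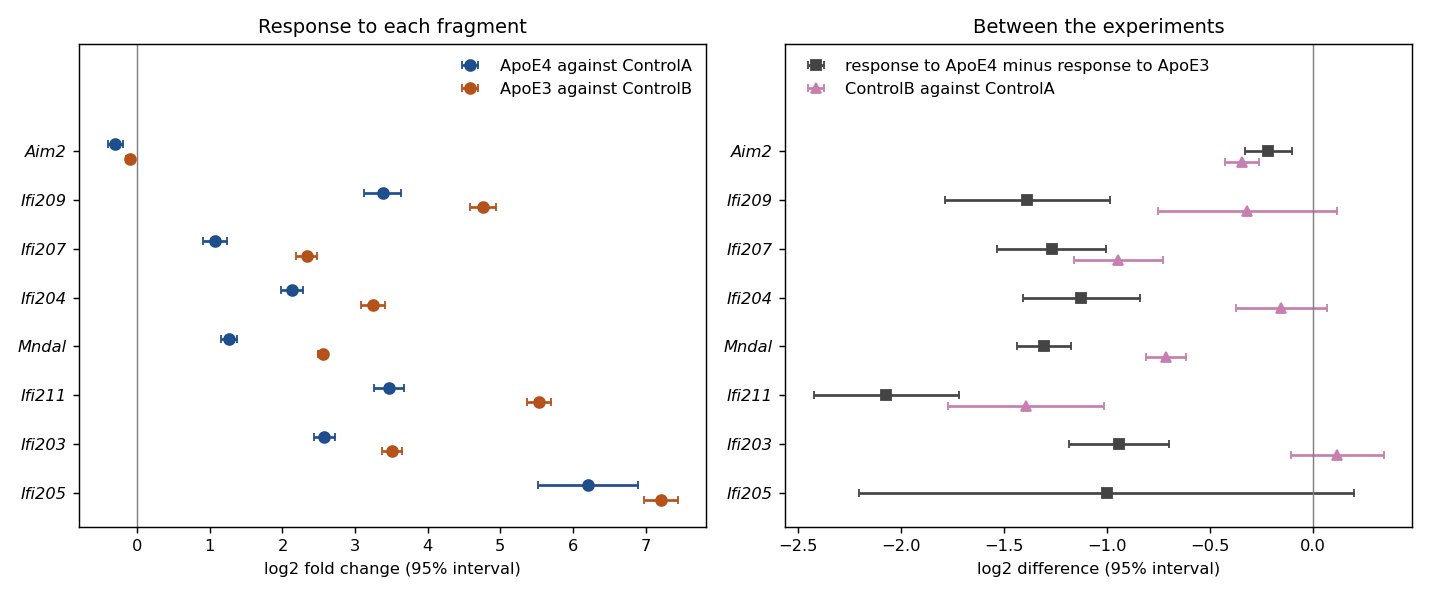
Left, log2 fold change of each gene with each fragment against its own controls. Right, the difference of the 2 responses (squares) and ControlB against ControlA (triangles, not tested for Ifi205), on the log2 scale, with bars for 95% intervals in both panels. Aim2 lies below 0 and the other 7 genes above 0 with both fragments, and the difference of Ifi205 is the only one whose interval includes 0.

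The untreated cells of the experiments already differed, which enters these differences. ControlB was lower than ControlA for 4 of the 7 members that could be tested and higher for none, where 34.9% of 14249 genes were lower and 34.4% higher. The log2 difference was -1.39 ± 0.194 for Ifi211 (edgeR adjusted p = 0.000314), -0.94 ± 0.11 for Ifi207 (adjusted p = 0.000113), -0.71 ± 0.049 for Mndal (adjusted p = 6.67e-06) and -0.34 ± 0.042 for Aim2 (adjusted p = 0.000142). For Aim2 this step between untreated groups was of the size of its fall with nApoE4. Ifi209 (-0.32), Ifi204 (-0.15) and Ifi203 (0.12) did not pass the test, with 95% intervals of -0.75 to 0.12, -0.37 to 0.07 and -0.10 to 0.35, and Ifi205 had too few counts to be tested.

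The treated levels show how much of the difference lay on that side. Mean CPM in ApoE3 was 2.11 times that in ApoE4 for Ifi209, 2.1 times for Ifi203 and 1.98 times for Ifi204, which were at 0.815, 1.10 and 0.912 times in ControlB relative to ControlA. For Ifi211 the ratio of treated levels was 1.61 and that of untreated levels 0.387, for Mndal 1.52 and 0.617, and for Ifi207 1.27 and 0.526. So in Ifi209, Ifi203 and Ifi204 the difference was mostly one of treated levels, while in Ifi211 and Ifi207 the lower untreated level made up the greater part on the log2 scale (-1.37 and -0.93 against 0.68 and 0.34 for the treated levels). In Mndal both parts were of like size (-0.70 and 0.61). For Aim2, ControlB was below ControlA by a log2 value of -0.33 and ApoE3 below ApoE4 by -0.11. The difference for Aim2 thus lay on the untreated side, and its treated levels were closer together than its untreated ones. For Ifi205 the values were -0.40 and 0.57, with few counts in the untreated libraries. These ratios between experiments are descriptions, and the summed level of the 11 macrophage and microglia markers, of which 1 was at 0 in every library, also differed between them, at 3330 to 3640 CPM in ControlA, 3614 to 3709 in ApoE4, 2519 to 2624 in ControlB and 3127 to 3146 in ApoE3. The part of this in the members' values was not tested.

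Around the 8 genes, 2 further PYHIN genes had enough counts to be tested, and both were higher with both fragments. Of all genes tested, 28.6% were higher with nApoE4 and 33.1% with nApoE3. Neither gene could be tested between the untreated groups, so both entered the tests through their treated libraries. Their calls are therefore no separate support for the rise of the family. Ifi202b had 1 to 3 counts in ControlA and 34 to 37 in ApoE4 (edgeR adjusted p = 8.49e-06), and 3 to 9 counts in ControlB and 35 to 39 in ApoE3 (adjusted p = 2.42e-05). Ifi213, listed as Pydc4, had 0 to 5 counts in ControlA and 12 to 13 in ApoE4 (adjusted p = 0.00624), and 0 to 3 in ControlB and 12 to 28 in ApoE3 (adjusted p = 0.000506). Both stayed below the lowest count of any member in the treated libraries.

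The genes that flank the family did not share its range of levels. Of 33 annotated genes between the members or within 300 kb of them, 22 had a row, and 17 of these had 0 counts in every library. The olfactory receptor gene Olfr433, next to Ifi205, had 0 to 4 counts in ControlA and 12 to 23 in ApoE4 (edgeR adjusted p = 0.00158), and 0 to 3 in ControlB and 27 to 37 in ApoE3 (adjusted p = 3.18e-05). Olfr433 too could not be tested between the untreated groups and entered the tests through its treated libraries. With so few counts, its log2 fold change with nApoE4 (3.83) ran from 3.26 to 7.31 when single libraries were left out.

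The genes whose products act with AIM2 were read from a list of 15 inflammasome and IL-1 genes. With nApoE4, 10 of 14 tested were higher and 3 lower, and with nApoE3, 10 of 15 were higher and 1 lower, with median log2 fold changes of 1.44 and 1.26. Of all genes tested, 28.6% were higher and 28.6% lower with nApoE4, and 33.1% and 34.6% with nApoE3. Pycard, the gene for the ASC adaptor that AIM2 recruits, had 1 to 13 counts in the untreated libraries and 3 to 13 in the treated ones. It was not tested with nApoE4 and did not pass with nApoE3 (log2 fold change 0.54, edgeR adjusted p = 0.278). Whether Pycard lost reads that also fell on another gene was not tested, so these counts do not settle its level. Il1b, the cytokine precursor cut by caspase-1, rose by 7.76 on the log2 scale with nApoE4 (edgeR adjusted p = 9.53e-11) and by 7.50 with nApoE3 (adjusted p = 3.14e-15), and Il18 by 1.6 and 1.5. Nlrp3, the sensor of another inflammasome, rose by 3.62 and 3.88. Casp1 rose by 1.06 and 1.26, Casp4 by 3.03 and 3.07 and Gsdmd, the pore former, by 0.30 and 0.44, all past the threshold. Nlrp1b fell, by log2 fold changes of -0.83 with nApoE4 and -1.05 with nApoE3, and with nApoE4 Nlrc4 (-0.62) and Casp8 (-0.33) were lower as well. Aim2 was thus not the only sensor gene of an inflammasome that was lower.

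For the route from cytosolic DNA through cGAS and STING, 7 of 17 genes tested were higher and 5 lower with nApoE4, and 9 were higher and 7 lower with nApoE3, with median log2 fold changes of 0.07 and 0.52. These counts are to be read against the same shares of all genes tested, 28.6% in either direction with nApoE4 and 33.1% higher and 34.6% lower with nApoE3. Sting1, listed as Tmem173 and the adaptor of the route, fell, with log2 fold changes of -0.82 with nApoE4 (edgeR adjusted p = 5.39e-06) and -0.36 with nApoE3 (adjusted p = 4.86e-07). The kinase gene Tbk1 rose by 0.79 and 0.87 and Trex1, which degrades cytosolic DNA, by 2.30 and 2.64. Zbp1, a sensor of Z-form nucleic acid, had 0 to 2 counts in ControlA and 186 to 221 in ApoE4, and 4 to 15 in ControlB and 841 to 1029 in ApoE3. Ifnb1, which encodes interferon β, had 0 to 2 counts in ControlA and 30 to 50 in ApoE4, and 3 to 9 in ControlB and 72 to 75 in ApoE3. Sting1 thus moved in the direction of Aim2, and opposite to the other 7 members.

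Among 15 genes for interferon receptors, their kinases and the factors that act after them, 12 were higher and 1 lower with nApoE4, and 13 were higher and 2 lower with nApoE3, with medians of 1.77 and 1.71, against the same shares over all genes. Usp18, an interferon-induced brake on the receptor, rose by 2.5 on the log2 scale with nApoE4 and by 4.15 with nApoE3. Irf8, a factor of the macrophage lineage, fell, with log2 fold changes of -1.44 with nApoE4 and -0.94 with nApoE3. The lists above were drawn up with results of these data known and their counts carry no test of their own.

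The difference between the fragments went both ways in the interferon and cGAS lists, and only below 0 in the inflammasome list. Of the 15 interferon genes, 4 had a difference above 0 and 6 one below 0 that passed the test. Of the 17 cGAS and STING genes tested, 2 were above and 5 below. Of the 14 inflammasome and IL-1 genes tested, 0 were above and 5 below. Over all genes tested, 14.4% were above and 13.9% below. Irf1, an interferon response factor, had a difference of 1.26 (edgeR adjusted p = 6.52e-07) and Ikbke, a kinase that activates IRF factors, one of 1.41 (adjusted p = 2.59e-06), both with the larger rise with nApoE4. Irf7, the factor that amplifies type I interferon, had a difference of -1.44 (adjusted p = 0.000133) and Usp18 one of -1.65 (adjusted p = 2.7e-06), the sign seen in Ifi211, Ifi209, Mndal, Ifi207, Ifi204 and Ifi203.

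**Figure D5:**
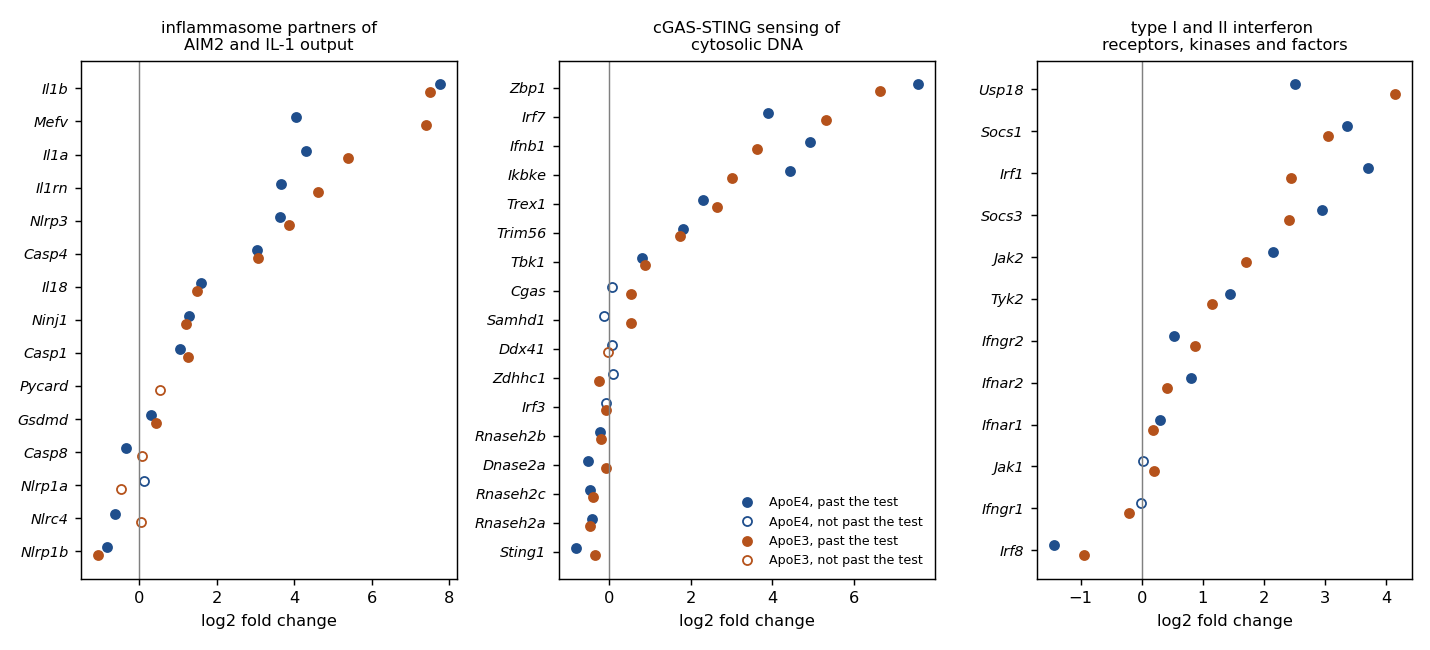
Log2 fold changes of the genes of 3 lists that are reported here with nApoE4 and nApoE3 against their own controls, filled where the adjusted p was under 0.05 and open where it was not. Genes are ordered by the mean of both values. Il1b and Zbp1 head their lists, Usp18 heads the third list with nApoE3 and Irf1 with nApoE4, and Nlrp1b, Sting1 and Irf8 are at the lower ends.

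Over the 11 libraries the members followed one profile apart from Aim2. The log2 CPM of the 7 rising genes had Pearson correlations of 0.954 to 0.995 with the mean of all members, and Aim2 had one of -0.531. That mean includes each of these genes and is made up mostly of the rising ones, so high values for them are partly built in. The genes outside the family most like that mean, of 11682 considered, were Trim34a (r = 0.997), Il1rn (0.997), Hdc (0.996), Rnf114 (0.996) and Abcb1a (0.995). The 11 libraries fall into 4 groups, so these values describe the order of the group means and carry no test. Il1rn, which encodes the antagonist of the IL-1 receptor, had group means of 12.9 CPM in ControlA, 163 in ApoE4, 10.3 in ControlB and 250 in ApoE3, and Trim34a of 3.16, 14.5, 2.14 and 23.9 CPM, both lowest in ControlB and highest in ApoE3 as most of the rising members were.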

How the data were processed

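Total RNA of 11 samples was sequenced as single-end reads of 75 bp. Per the labels and the study's methods, the authors trimmed reads with Trim Galore 0.5.0, checked them with FastQC 0.11.8, mapped them to GRCm38.p6 with HISAT2 2.1.0 and counted them on genes with HTSeq 0.11.0. They deposited raw counts for 36529 genes, with tallies of uncounted reads (76.0 to 77.7% of tallied reads were on genes), which stayed out of library sizes. The annotation release, strand setting and overlap mode are not given in the sources used here.

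Counts were tested in R 4.3.3 with edgeR 4.0.16 (filterByExpr, TMM, quasi-likelihood F test, Benjamini-Hochberg over all genes, adjusted p under 0.05), each fragment against the controls of its experiment. The fragments were compared by an interaction over 11 libraries with 4 group means, and ControlB was compared with ControlA. SE was taken as the absolute log2 value over the root of F, and intervals are 1.96 SE on either side. CPM is scaled by TMM over all 11 libraries. The fits were tested on simulated data.

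All members are named in every comparison, genes of the fixed lists may be named (those with values were picked after their values were seen), and the 5 genes most like the mean member profile are given, among genes with a mean of at least 1 CPM. The members and lists were chosen with earlier results of these data known. Symbols were matched through RefSeq synonyms (GRCm38.p6), and lengths, positions and shared 75-base windows come from GENCODE M21. Promoter windows were aligned with free ends, and the pair of starts with most identical bases was used.

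The alternatives were DESeq2 1.42.0 with its Wald test, its size factors in edgeR, filters of at least 1 count and of at least 10 counts in every library, a fold above 2 as well, counts thinned to the smallest library, all 11 libraries in one fit, the replicate number as a block, each replicate left out and the length of the longest transcript. The rows named as listed and the length in unshared windows were added after the data were seen. Some listed genes are not reported here.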

Additional observations from a re-analysis of the deposited data

Results flagged for a closer look

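For 7 members the response differed between the fragments by the test of the interaction (edgeR quasi-likelihood F test, adjusted over all genes tested), which is why they are listed here. The differences of the log2 fold changes, nApoE4 minus nApoE3, were -2.07 for Ifi211, -1.39 for Ifi209, -1.30 for Mndal, -1.27 for Ifi207, -1.12 for Ifi204, -0.94 for Ifi203 and -0.21 for Aim2. In the first 6 the rise was larger in the nApoE3 experiment, and in Aim2 the fall was larger in the nApoE4 experiment. Fragment and experiment cannot be told apart.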

How the results depend on the processing

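The counts of members called stayed within 1.5 times under every alternative run, except that with a fold above 2 as well only 1 member (Ifi211) was lower in ControlB, against 4. That rule gave 2515 genes with nApoE4, 2397 with nApoE3, 906 for the difference and 2551 for ControlB against ControlA, against 8145, 10034, 4331 and 9879. Replicate numbers are shared within each experiment, but same-numbered libraries did not deviate together (correlations of deviations of -0.253 to 0.008), and the main fits used no pairing. With 2 or 3 libraries in a group, deviations from the group mean are tied to each other, so this check cannot exclude pairing. With the replicate number as a block the difference had 2307 genes, and the block ended only the call of the difference of Aim2 (adjusted p = 0.111) among the members. Without ControlA replicate 2 the difference of Ifi205 was reversed to 0.381, and over all single libraries left out it ran from -1.49 to 0.38. Ifi205 had no value with at least 10 counts in every library. Of 32 levels per kilobase, 20 moved by more than 1 SD with the length of the longest transcript and 19 with that of unshared windows. No result named here was otherwise reversed. Depth limits Ifi205, Ifi202b, Ifi213, Zbp1, Ifnb1 and Olfr433 in untreated cells.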
